A study of Mus musculus with 40 samples.

Results

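The genes described here encode the nuclear subunits of the mitochondrial respiratory chain and ATP synthase. They were chosen by symbol: Nduf genes of the a, b, c, s and v series, Uqcr genes, the Cox4i, Cox5, Cox6, Cox7 and Cox8 genes, Sdha to Sdhd and the Atp5 genes. A gene was kept when it reached a CPM (read counts scaled to the library's total) of 1 in at least 4 libraries of E9.5 embryos or of LSK cells. Of the 26411 genes counted, 91 had such a symbol and 87 were kept, namely 40 of complex I, 4 of complex II, 8 of complex III, 17 of complex IV and 18 of complex V. The 4 genes not kept were Cox8c, Ndufb11b, Cox7b2 and Cox8b. Another 3 (Ndufa11b, Ndufs5-ps and Cox7c-ps1) are annotated as pseudogenes and were left out of the tests, so 84 genes were tested in every comparison. Ndufa4l2 was placed under complex I by its symbol, although it is a paralogue of the complex IV subunit Ndufa4.

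RNA was sequenced from 24 whole E9.5 mouse embryos of 6 genotypes and from 16 samples of LSK cells of 4 genotypes, with 4 libraries in each genotype. LSK cells are lineage-negative, SCA-1-positive, c-KIT-positive cells, a population rich in blood stem and progenitor cells, here sorted from E14.5 fetal liver. The histone acetyltransferases KAT6A and KAT6B were compared in wild type (WT), in mutants lacking the protein, and in mutants with a glycine-to-glutamate change meant to abolish catalysis. The question was whether loss of acetyltransferase activity has the same effect on gene expression as loss of the protein. At E9.5 the genotypes were WT, Kat6a null (cfd/cfd), Kat6b null (dec/dec), Kat6a E/E (G656E/G656E), Kat6b E/E (G577E/G577E) and a double mutant homozygous for both point mutations. The LSK samples came from WT, from each single point mutant and from the double mutant, without nulls. All E9.5 embryos were male and matched by stage. These are germline alleles, present in every cell of the embryo, and the point mutations were made by genome editing and then backcrossed. Whole embryos mix all tissues, so fewer cells of a type and less RNA per cell cannot be told apart.

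The respiratory chain passes electrons from NADH through complex I, and from succinate through complex II, to complexes III and IV, where oxygen is reduced. Complexes I, III and IV pump protons across the inner mitochondrial membrane, and complex V uses the proton gradient to make ATP. All subunits of complex II and most of the subunits of the other complexes are encoded in the nucleus, while the core of the others includes subunits encoded in mitochondrial DNA, which were not analysed here. Blood stem cells are known for relying more on glycolysis than most cells do.

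Libraries held 8401990 to 23339359 counted read pairs at E9.5 and 12270376 to 59216547 in LSK. The 87 kept genes took 0.842 to 1.03% of them at E9.5 and 1.13 to 1.48% in LSK. Embryo libraries contained the markers of their tissues, with 12 of 12 heart, 10 of 10 primitive erythroid, 8 of 8 yolk sac endoderm and hepatocyte, and 8 of 8 neural genes at 1 CPM or more, and LSK libraries contained 12 of 12 LSK markers. In LSK, 1 of 8 neural and 4 of 12 heart markers reached this level, but so did 9 of 10 primitive erythroid, 8 of 8 endoderm and hepatocyte and 14 of 16 other fetal liver blood cell markers. In embryos, 6 of the 12 LSK markers reached it too. Between LSK WT and E9.5 WT, 10 of the 12 were higher in LSK and 2, Meis1 and Mecom, lower. Ly6a, the gene of SCA-1, had a mean of only 3.54 CPM in LSK WT and Slamf1 3.47, against 503 for Kit and 681 for Cd34. Within the primitive erythroid list, Hba-x, Hbb-bh1 and Hbb-y had means of 0.70, 1.38 and 3.72 CPM in LSK WT, against 1639, 1108 and 1646 in E9.5 WT. The counts of this list in LSK WT came mostly from its other genes, such as Hba-a1 (563), Ermap (227) and Klf1 (104). The part of these markers in the differences between LSK and E9.5 was not tested. Gene-level counts did not check the null alleles, since Kat6a stood at 160 to 171 CPM in Kat6a null against 169 to 186 in WT, and Kat6b at 52 to 58 CPM in Kat6b null against 38 to 43 in WT. E9.5 double mutant replicate 2 stood apart: its 17 glycolysis genes lay at a median of 1.03 above the E9.5 mean on the log2 scale, against −0.22 to 0.20 in the other 23 libraries. In LSK double mutant replicates 2 to 4, which came from a single litter, erythroid markers summed to 5739 to 9405 CPM against 765 to 2922 in WT.

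Promoters were read for 68 of the 87 kept genes, from 250 bases before to 50 after the RefSeq gene start (build GRCm38.p6). A gene was counted when any of its windows held the sequence on either strand. The sequence of an NRF1 core (GCGCATGC) was present in 10 of the 68 genes (14.7%), against 3.05% of 27025 genes. An ETS core, as bound by GABP (CCGGAAG), was found in 17 (25% against 9.93%), a YY1 core (AAGATGGCG) in 7 (10.3% against 1.64%), and an ERR site (TGACCTT) in 9 (13.2% against 5.38%). The CCAAT box was found in 42.6% of the 68 genes and in 41.1% of all genes. NRF1, GABP, YY1 and ERR factors are known regulators of nuclear genes for mitochondrial proteins. The windows of 4 of the 6 genes that passed the test in a mutant are shown, 5′ to 3′ on the strand of the gene, with matches to the NRF1, ETS, YY1 and ERR letters in capitals. Their positions in GRCm38.p6 are chr7:3617123-3617422 on the plus strand for Ndufa3, chr9:44920693-44920992 on the minus strand for Atp5mg, chr15:102670998-102671297 on the minus strand for Atp5mc2 and chr5:115348909-115349208 on the minus strand for Cox6a1. The other two genes, Cox4i2 and Ndufa4l2, are named only.
Ndufa3: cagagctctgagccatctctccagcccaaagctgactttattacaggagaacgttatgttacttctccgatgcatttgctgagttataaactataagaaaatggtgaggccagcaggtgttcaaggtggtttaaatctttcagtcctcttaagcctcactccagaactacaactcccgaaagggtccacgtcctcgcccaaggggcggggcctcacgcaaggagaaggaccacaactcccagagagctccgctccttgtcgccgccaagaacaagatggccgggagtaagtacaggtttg
Atp5mg: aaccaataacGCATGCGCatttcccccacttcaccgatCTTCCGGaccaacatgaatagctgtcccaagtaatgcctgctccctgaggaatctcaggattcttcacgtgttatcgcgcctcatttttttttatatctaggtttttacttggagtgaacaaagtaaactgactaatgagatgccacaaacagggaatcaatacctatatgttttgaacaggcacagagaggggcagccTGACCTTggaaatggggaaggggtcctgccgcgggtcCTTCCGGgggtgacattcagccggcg
Atp5mc2: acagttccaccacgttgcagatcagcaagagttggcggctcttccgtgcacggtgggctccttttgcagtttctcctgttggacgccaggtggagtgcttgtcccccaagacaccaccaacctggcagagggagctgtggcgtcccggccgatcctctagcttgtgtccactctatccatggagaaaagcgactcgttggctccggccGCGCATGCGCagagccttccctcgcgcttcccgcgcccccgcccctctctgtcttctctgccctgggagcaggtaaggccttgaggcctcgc
Cox6a1: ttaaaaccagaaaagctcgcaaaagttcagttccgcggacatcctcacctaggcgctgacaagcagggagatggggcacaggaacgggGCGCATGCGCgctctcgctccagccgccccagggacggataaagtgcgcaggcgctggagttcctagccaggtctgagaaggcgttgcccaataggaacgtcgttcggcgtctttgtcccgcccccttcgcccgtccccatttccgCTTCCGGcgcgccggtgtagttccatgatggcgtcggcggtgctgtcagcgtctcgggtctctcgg
The Atp5mg window held an NRF1 match, a pair of ETS matches and an ERR match. The Cox6a1 window held overlapping NRF1 matches on both strands and an ETS match, the Atp5mc2 window held overlapping NRF1 matches on both strands, and the Ndufa3 window held none of these letters.

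In WT, ATP synthase genes were the most abundant per length. On the scale of CPM per kilobase of transcript, normalised over all 40 libraries, Atp5f1b, the catalytic beta subunit, stood at 818 ± 23.9 (SD, n = 4) in E9.5 embryos and 907 ± 16.3 in LSK. Atp5f1a, the alpha subunit, followed at 445 ± 13.2 and 615 ± 23.0, and Atp5mc3, an isoform of the membrane c subunit, at 434 ± 7.69 and 496 ± 18.9. In E9.5 embryos Atp5f1a (434 to 464) and Atp5mc3 (423 to 440) overlapped, whereas Atp5f1b lay above both. The lowest were Ndufa4l2 (1.74 ± 0.72 at E9.5 and 1.03 ± 1.08 in LSK), Cox7a1 (2.46 ± 0.75 and 2.13 ± 0.63) and Cox6a2 (3.82 ± 0.44 and 4.64 ± 0.39), of which the latter pair encode isoforms known from heart and skeletal muscle. The median gene stood at 74.8 in E9.5 embryos and 109 in LSK. By complex, the median gene at E9.5 was lowest for complex I (64.3 ± 2.1) and highest for complex V (128 ± 4.9), and complex IV (98.2 to 109.9) overlapped complex II (104 to 107) and complex III (101 to 104). The plot of WT levels shows how similar the order was in both sources.

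**Figure D1:**
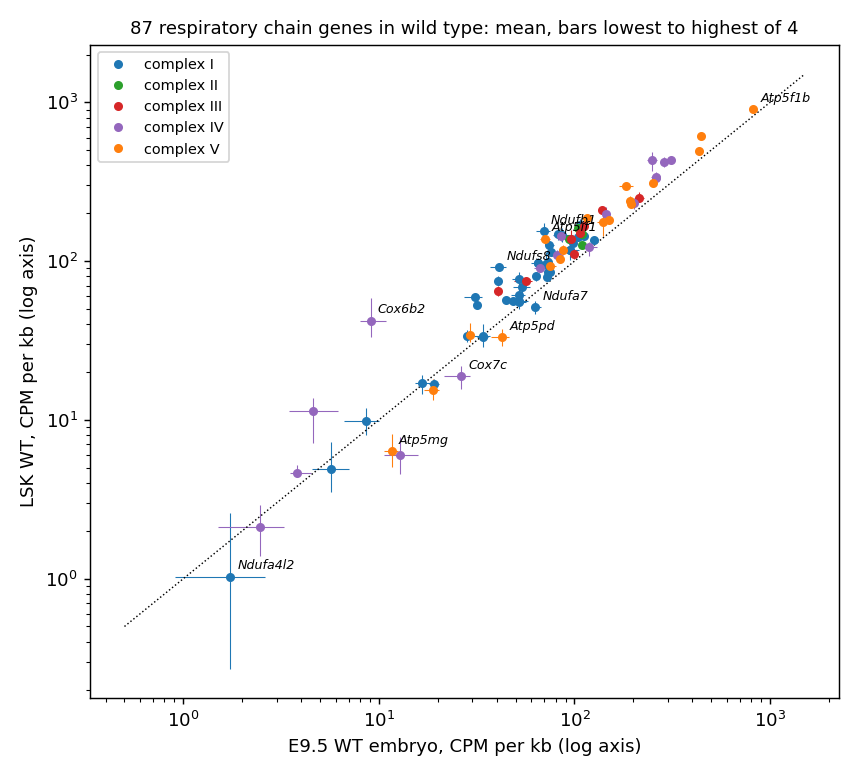
Level of each of the 87 genes in WT, as CPM per kilobase on log axes, in E9.5 embryos (x) and LSK cells (y), coloured by complex; points are means of 4 libraries, bars run from the lowest to the highest library, and the dotted line marks equal levels. Most genes lie above the line, Cox6b2 farthest, and Atp5f1b is highest in both sources.

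Respiratory chain genes were more often higher in LSK WT than in E9.5 WT. Of the 84, 59 were higher and 3 lower at FDR below 0.05 (limma, voom with litter as a random block, Benjamini-Hochberg over 15123 genes), while 32.3% of all genes were higher and 42.6% lower. The median log2 fold change was 0.36, against −0.10 over all genes. Higher genes numbered 24 of 38 in complex I, 4 of 4 in complex II, 7 of 8 in complex III, 11 of 16 in complex IV and 13 of 18 in complex V. LSK WT replicates 1 to 3 came from a single litter and replicate 4 from another, while each E9.5 WT embryo came from its own litter. The LSK WT libraries are therefore not 4 separate litters. This comparison was not made by the study, and stage and tissue differ together and cannot be told apart. GEO's labels also give another extraction kit and a smaller RNA input for LSK, whereas the methods of the study name a single kit and input, so whether these differed is not settled. Other genes of under 1000 bases also had a median of 0.33 (788 genes, 336 higher and 150 lower), and 65.5% of the 87 genes are this short, against 5.03% of genes tested at E9.5. The part of transcript length in the result was not tested.

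The largest difference was in Cox6b2, an isoform of the complex IV subunit 6B known from testis. Its CPM, normalised over all 40 libraries, was 4.94, 6.69, 5.58 and 5.19 in E9.5 WT and 24.9, 22.7, 20.5 and 35.9 in LSK WT, so the groups did not overlap. The log2 fold change was 2.31 (SE 0.38, adjusted p = 1.28e-06, limma). Ndufs8, a subunit carrying iron-sulfur clusters in complex I, was higher by 1.17 on the log2 scale. The accessory subunit Ndufb1 was higher by 1.18, and Atp5if1, the inhibitor of ATP synthase, by 1.01. Ndufb4c, Ndufb3, Ndufb10, Ndufs7, Ndufa6 and Cox7b were higher by 0.75 to 0.96, all past the same threshold, although all of the Ndufb4c transcript has near-copies elsewhere. The 3 lower genes were Cox7c (−0.42), Atp5pd (−0.34) and Ndufa7 (−0.31). Of these, Cox7c and Atp5pd share 74.1% and 51.0% of their transcript with other places in the genome, at 95% identity or more over at least 75 bases.

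The complex II genes, which form succinate dehydrogenase and are all nuclear, rose together, Sdha by 0.44, Sdhb by 0.55, Sdhc by 0.20 and Sdhd by 0.67. Among a fixed set of other subunits, Ndufa4 (0.73), Uqcrc1 (0.61), Cox4i1 (0.48), Atp5f1a (0.45), Ndufs1 (0.23), Ndufv1 (0.19), Cox5a (0.16) and Atp5f1b (0.14) were also higher. Uqcrfs1, the Rieske protein of complex III, was at 0.16 without passing the test (adjusted p = 0.105, limma). Other mitochondrial lists moved in the same direction: 51 of 78 mitochondrial ribosomal protein genes were higher and 3 lower (median 0.39), and so were 28 of 46 assembly factors (2 lower, median 0.38), 15 of 18 TCA cycle genes (0 lower, median 0.37) and 9 of 19 import genes (1 lower, median 0.22). Of 3 subunits whose symbols fall outside the rule, 1 was higher. The direction was not limited to mitochondrial lists, since 47 of 82 cytosolic ribosomal protein genes were higher and 9 lower (median 0.30). Of 17 glycolysis genes 3 were higher and 12 lower (median −0.73), among them Slc2a1 (−2.45), the glucose transporter, Ldhb (−2.0) and Eno1 (−1.80), while Hk1, a hexokinase, was higher (2.28). Of 16 regulators of mitochondrial biogenesis 7 were higher and 4 lower. The coactivator genes went apart, Ppargc1b higher by 2.41 and Ppargc1a lower (−3.67), as did the ERR genes Esrra (0.64) and Esrrg (−7.73).

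Minor isoforms of complex IV subunits took small shares. As counts per kilobase, Cox6b2 made up 3.34% ± 0.39 (SD, n = 4) of Cox6b1 and Cox6b2 together in E9.5 WT and 11.1% ± 2.2 in LSK WT. Its mean share lay between 3.19 and 4.23% in the 6 E9.5 genotypes and between 9.33 and 13.8% in the 4 LSK genotypes, so the sources did not overlap. Cox4i2 held 1.45% ± 0.40 and 2.55% ± 0.68 in E9.5 and LSK WT, Cox6a2 1.45% ± 0.23 and 1.34% ± 0.06, and Cox7a1 2.05% ± 0.68 and 1.72% ± 0.52. Among the c subunits of ATP synthase, Atp5mc3 held 90.0% ± 0.28 and 90.9% ± 0.81.

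**Figure D2:**
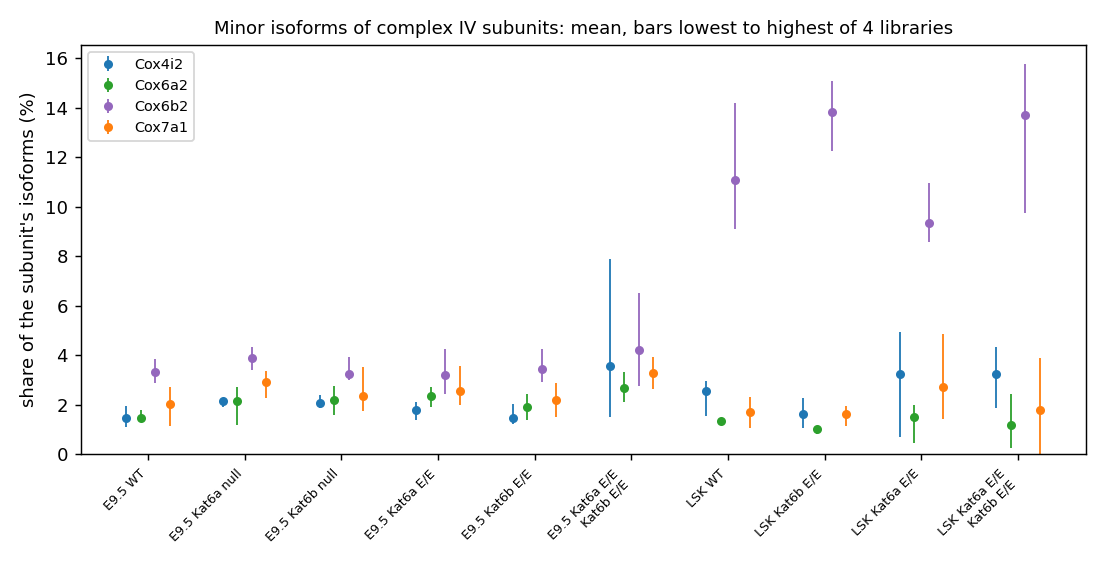
Share (%) of 4 minor isoforms within their complex IV subunit, from counts per kilobase, in the 6 E9.5 and 4 LSK genotypes; points are means of 4 libraries and bars run from the lowest to the highest. The Cox6b2 means are 9.33 to 13.8% in LSK and 3.19 to 4.23% at E9.5.

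In the mutants 6 different genes passed in at least 1 E9.5 comparison and none in LSK. Over all genes, 0 to 2.91% passed in a comparison at E9.5 and 0 to 1.36% in LSK, so 0 to 3 of 84 is near that background and is not a result about these genes. The plot of fold changes shows all 84 genes in the 12 comparisons.

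**Figure D3:**
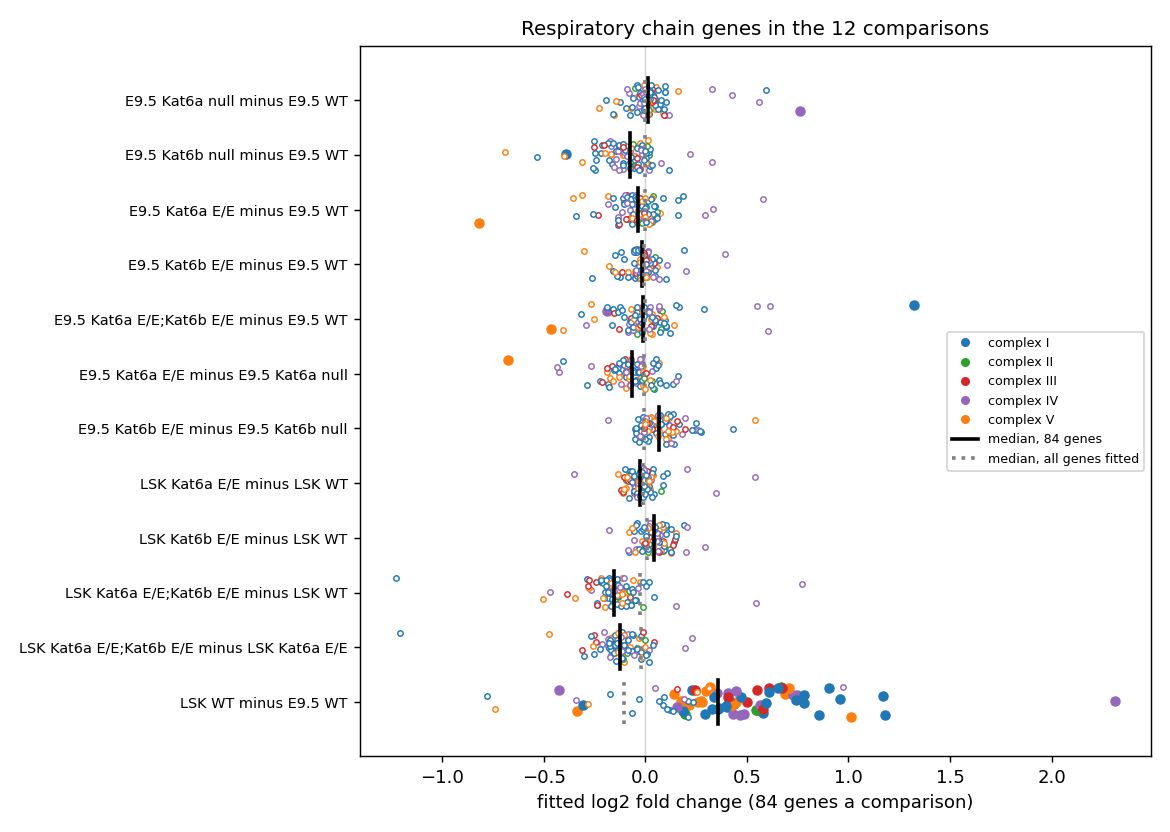
Fitted log2 fold change of the 84 genes in each of the 12 comparisons, coloured by complex, with filled points for FDR below 0.05; black bars are medians of the 84 genes and dotted grey bars medians of all genes tested. Fold changes in the mutants centre near 0, with medians of −0.15 to 0.07, and the median in LSK WT against E9.5 WT is 0.36.

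In Kat6a null embryos 1 of 84 genes was higher and 0 lower, where 2.64% of all genes passed (limma). The gene was Cox4i2 (chr2:152595625-152606959, GRCm39, plus strand), an isoform of the complex IV subunit 4 known for its expression in lung and its response to low oxygen. Its CPM was 3.81, 2.49, 2.54 and 4.395 in WT and 6.0, 5.25, 4.38 and 4.92 in Kat6a null. The groups overlapped, since the highest WT library was just above the lowest mutant one. The log2 fold change was 0.76 (SE 0.20, 95% interval 0.36 to 1.17, adjusted p = 0.0349, limma). In E9.5 double mutants Cox4i2 was at 3.98, 17.7, 3.54 and 6.17 CPM, with a log2 difference of 0.60 that did not pass. The median of the 84 genes in Kat6a null was 0.01. In the same comparison 3 heart genes (Tnni1, Myl2 and Myl3, by 0.38 to 0.60) were higher and 2 neural genes (Pax6 and Sox2, by −0.28 and −0.33) lower, and the part of tissue composition in the Cox4i2 result was not tested. The Cox4i2 call was lost when WT replicate 2 or 3 (0.65 and 0.62) or Kat6a null replicate 1, 2 or 3 (0.73, 0.67 and 0.79) was left out.

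In Kat6b null embryos 1 gene was lower, where 0.508% of all genes passed. It was Ndufa3 (chr7:3620342-3623326, GRCm39, plus strand), an accessory subunit of complex I, whose promoter window is printed above. Its CPM was 29.9, 35.7, 32.0 and 33.2 in WT and 29.0, 26.4, 24.2 and 23.9 in Kat6b null, so every mutant library was below every WT one. The log2 fold change was −0.39 (SE 0.08, 95% interval −0.56 to −0.22, adjusted p = 0.0232, limma). The call was lost without WT replicate 2 or 4 (−0.37 and −0.35) or Kat6b null replicate 3 or 4 (−0.33 and −0.38). With an unadjusted p below 0.05, 26 of the 84 genes were lower and none higher, against 6.49% of all genes lower, and 68 lay below 0, with a median of −0.07. By complex the medians were −0.10 for complex I, −0.02 for complex II, −0.05 for complex III, −0.10 for complex IV and −0.08 for complex V. The complex V gene Atp5mg was at −0.69 (adjusted p = 0.0677), the complex III gene Uqcr11 at −0.25 and the complex IV gene Cox6b1 at −0.17, and none of them passed. Other short genes had a median of −0.06 and 81 cytosolic ribosomal protein genes one of −0.12, with 7 of them lower at FDR below 0.05. Markers of tissues lay apart in the same comparison, with 8 of 8 endoderm and hepatocyte genes below 0 (median −0.99), 10 of 10 primitive erythroid genes above 0 (median 0.54) and 8 of 8 neural genes below 0 (median −0.21). Of these, Tubb3 passed (−0.41). Their summed CPM in WT and Kat6b null was 45.7 to 180 and 22.6 to 59.4 for endoderm, 4054 to 6280 and 3824 to 13975 for erythroid, and 453 to 543 and 312 to 448 for neural genes, and their part in the shift was not tested. Within the single litter that also held a WT embryo, the median difference was −0.05 in Kat6b null replicate 2. The same kind of value was 0.008 in Kat6a null replicate 2 and −0.14 in Kat6a E/E replicate 1 at E9.5. In LSK it was 0.003 in Kat6a E/E replicate 1.

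In Kat6a E/E embryos 1 gene was lower, where 0.275% of all genes passed. It was Atp5mg (chr9:44800118-44832055, GRCm39, minus strand), the g subunit of ATP synthase, with CPM of 5.97, 6.35, 5.75 and 5.36 in WT and 2.61, 4.09, 4.19 and 3.53 in Kat6a E/E. Again the groups did not overlap. The log2 fold change was −0.82 (SE 0.17, 95% interval −1.16 to −0.47, adjusted p = 0.0282, limma). Atp5mg was at 3.89, 2.99, 3.87 and 3.37 CPM in Kat6b null, where it did not pass, and at 5.38, 5.78, 6.49 and 4.92 in Kat6a null. Against Kat6a null, Kat6a E/E was lower by −0.67 (SE 0.18, adjusted p = 0.0489), the only 1 of 84 genes to pass in that comparison, where 1.6% of all genes did. No Kat6a E/E embryo shared a litter with a Kat6a null embryo, so litter and genotype cannot be told apart in that comparison. Atp5mg shares 85.8% of its transcript with 11 other places in the genome, so its counts depend on how such reads were placed. Both calls were lost when any library but Kat6a E/E replicate 3 was left out, with values from −0.61 to −0.86 against WT and from −0.48 to −0.73 against Kat6a null.

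With an unadjusted p below 0.05, 11 genes were lower and 2 higher in Kat6a E/E against WT, where 5.75% of all genes were lower, and 12 were lower and 1 higher against Kat6a null, where 7.71% were. The medians were −0.04 and −0.06. Against WT the median was 0.00 without Kat6a E/E replicate 1, with 42 of 84 genes below 0, −0.01 without replicate 4 and −0.07 without replicate 3. Against Kat6a null it was −0.02, −0.03 and −0.10 without the same libraries. After Atp5mg, the lowest p in Kat6a E/E against WT belonged to Ndufa1 (−0.34, adjusted p = 0.107), a small complex I subunit. Cytosolic ribosomal protein genes moved in the same comparison, with a median of −0.15 and 15 of 81 lower. Among mitochondrial import genes Timm23, the channel of the inner membrane, was lower by −0.46 and Tomm40, the channel of the outer membrane, by −0.21, and Timm23 was lower in Kat6b null too (−0.43). Timm23 shares 99.1% of its transcript with other places in the genome and Tomm40 shares none. No assembly factor, biogenesis regulator or mitochondrial ribosomal protein gene passed in any mutant.

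Kat6b E/E embryos showed 0 genes of the 84 past the threshold, as 0% of all genes were. At an unadjusted p below 0.05, 2 were lower and 0 higher, edgeR's quasi-likelihood test and DESeq2 also called 0, and the median was −0.02. The share of all genes at that unadjusted p is not given for this comparison, so the count has no background beside it. Against Kat6b null, where 0.0353% of all genes passed, 0 of 84 passed, while 17 were higher and 0 lower at an unadjusted p below 0.05 (4% of all genes were higher), with a median of 0.07. The smallest p there belonged to Ndufv3, a complex I subunit, at 0.25 (SE 0.07, adjusted p = 0.238). Kat6b E/E embryos shared no litter with WT or Kat6b null embryos, so litter and genotype cannot be told apart.

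In E9.5 double mutants 1 gene was higher and 2 lower, where 2.91% of all genes passed. No double mutant embryo shared a litter with a WT embryo, so litter and genotype cannot be told apart in these calls. Ndufa4l2 (chr10:127350818-127353038, GRCm39, plus strand), a paralogue of Ndufa4 known to be induced by low oxygen, was at 1.82, 0.86, 1.44 and 2.47 CPM in WT and 2.59, 35.5, 2.43 and 3.43 in the double mutants. Replicate 2 was far above the other 3. The log2 fold change was 1.32 (SE 0.31, 95% interval 0.68 to 1.97, adjusted p = 0.0214, limma), and without that library it was 0.81 (adjusted p = 0.143). The call was also lost without WT replicate 2 or 3 (1.03 and 1.22). Glycolysis genes were high in the same library, and Pfkl, Aldoc and Tpi1 were called higher in the double mutants by 0.31, 0.66 and 0.32.

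Atp5mc2 (chr15:102571295-102580787, GRCm39, minus strand), an isoform of the c subunit alongside Atp5mc1 and Atp5mc3, was at 11.8, 12.9, 12.8 and 10.8 CPM in WT and 9.62, 10.6, 8.92 and 7.35 in the double mutants. All mutant libraries were below all WT ones, with a log2 fold change of −0.47 (SE 0.11, adjusted p = 0.0242, limma). It shares 89.2% of its transcript with other places. Cox6a1 (chr5:115483701-115487050, GRCm39, minus strand), the widely expressed isoform of the complex IV subunit 6A, was at 143, 139, 141 and 129 CPM in WT and 125, 110, 138 and 111 in the double mutants, which overlap. Its log2 fold change was −0.19 (SE 0.05, adjusted p = 0.0484, limma), and the call was lost when any library but double mutant replicate 3 was left out, with values from −0.15 to −0.20. The Atp5mc2 call was lost when WT replicate 1, 2, 3 or 4 or double mutant replicate 4 was left out, with values from −0.37 to −0.48. The median of the 84 genes was −0.01. Tomm40 and Timm23 were lower here too (−0.22 and −0.32) and Pdha1, a subunit of pyruvate dehydrogenase, was higher by 0.16, the only TCA cycle gene to pass in a mutant.

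**Figure D4:**
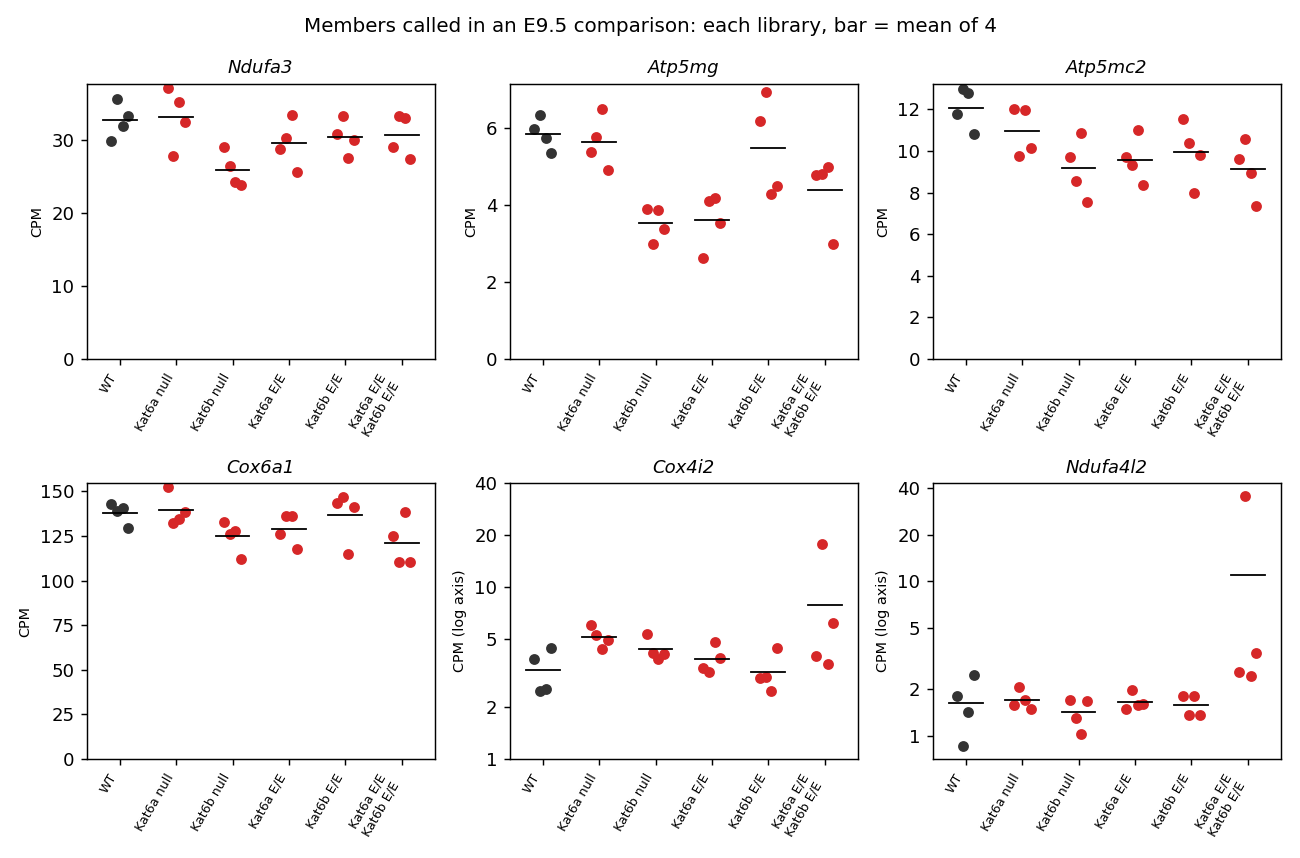
CPM of the 6 genes that passed in an E9.5 comparison, in each of the 4 libraries of the 6 genotypes, with bars at the mean; the Cox4i2 and Ndufa4l2 axes are logarithmic. Double mutant replicate 2 stands alone at 35.5 CPM for Ndufa4l2 and at 17.7 CPM for Cox4i2.

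In LSK cells none of the 84 genes passed in any mutant. In LSK Kat6a E/E, where 1.36% of all genes passed, 1 gene was higher and 2 lower at an unadjusted p below 0.05, and the median was −0.03. Cox4i2 was at 10.3, 8.93, 9.39 and 5.37 CPM in WT and 14.3, 2.66, 9.89 and 15.9 in Kat6a E/E, overlapping fully, with a fitted log2 difference of 0.54 (adjusted p = 0.0953, limma). In LSK Kat6b E/E, where 0% of all genes passed, 2 genes were higher and 0 lower at that unadjusted p, and the median was 0.04. These samples shared no litter with LSK WT, so litter and genotype cannot be told apart. edgeR's quasi-likelihood test and DESeq2 called 0 of the 84 genes in each LSK comparison as well. For LSK Kat6a E/E and LSK Kat6b E/E the share of all genes at the unadjusted p is not given. Their counts at that cut therefore have no background beside them.

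In LSK double mutants 0% of all genes passed against WT, and the 84 genes had a median of −0.15 with 78 below 0, against a median of −0.03 over all genes. At an unadjusted p below 0.05, 11 were lower and 1 higher, where 4.36% of all genes were lower. The direction rested on how the libraries were adjusted. The median deviation of the 84 genes from the LSK mean was also taken in each library, from TMM-normalised CPM without surrogate variables. Replicate 1 stood at −0.25 and replicates 2, 3 and 4 at 0.12, 0.07 and 0.14, while WT libraries lay between −0.11 and 0.01. In the fit without surrogate variables the median fold change was 0.03, with 36 of 84 genes below 0. In the fit without replicate 1 it was −0.02, with 2 genes passing, 1 higher and 1 lower. Replicate 1 had erythroid markers at 928 CPM and LSK markers at 2207 CPM, whereas LSK markers summed to 1185 to 1400 CPM in replicates 2 to 4. Double mutants shared no litter with WT or with LSK Kat6a E/E, so litter and genotype cannot be told apart in either comparison. The smallest p against WT belonged to Cox4i2, at 12.8, 13.1, 10.4 and 6.98 CPM in the double mutants, with a log2 difference of 0.77 (adjusted p = 0.430, limma). Against LSK Kat6a E/E, where 0% of all genes passed, the median of the 84 genes was −0.12, with 2 genes lower and 0 higher at an unadjusted p below 0.05. Without double mutant replicate 1 this median was −0.01, and 3 genes passed as lower, Cox6a2, Ndufs3 and Uqcrb. The share of all genes at the unadjusted p is not given for the contrast with Kat6a E/E. Nor is the share passing given for either fit without replicate 1, so these counts have no background beside them.

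Across single libraries, the respiratory chain genes as a group moved with other short genes. The plot of library shifts sets both medians side by side. In E9.5 Kat6b null replicates 1 to 4 the group stood at 0.02, −0.08, −0.07 and −0.13 from the E9.5 mean. In LSK Kat6b E/E replicate 3, the highest of all 40 libraries, the group stood at 0.31 and other short genes at 0.28. The lowest library was LSK double mutant replicate 1, at −0.25 and −0.17. At E9.5 the Kat6a E/E libraries spread from −0.15 to 0.13 and the WT libraries from −0.04 to 0.03.

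**Figure D5:**
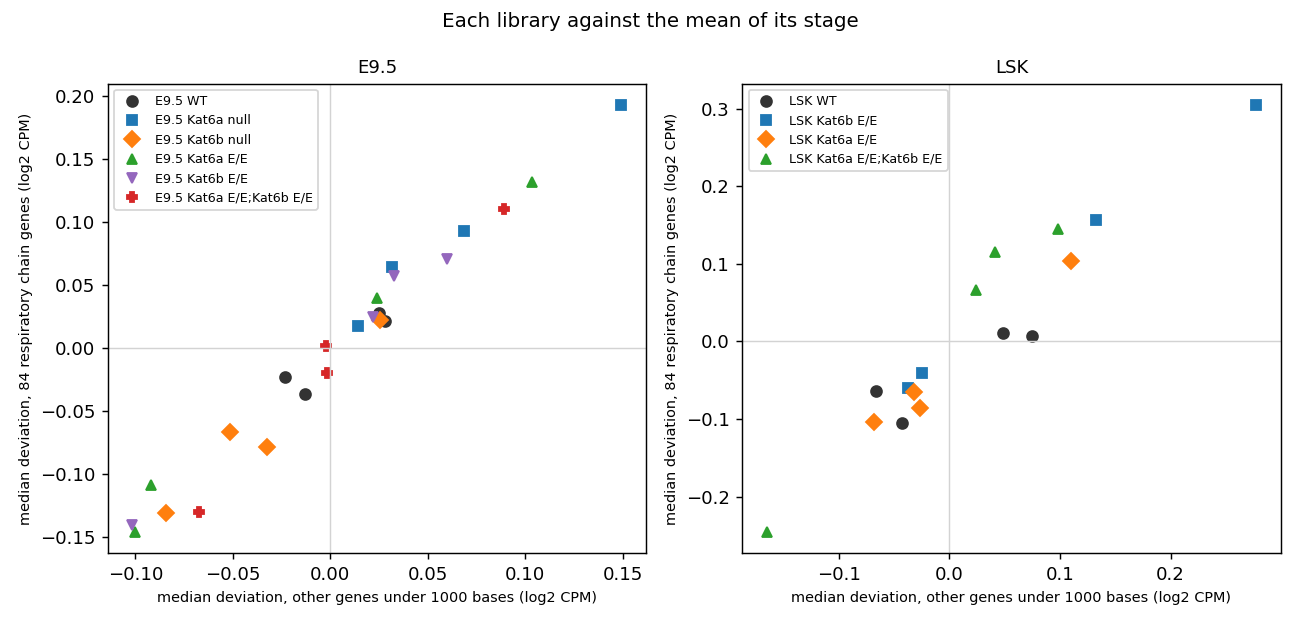
Median deviation from the stage mean (log2 CPM) of the 84 respiratory chain genes (y) and of other genes under 1000 bases (x) in each library, E9.5 left and LSK right, with a symbol for each genotype. Libraries with high short genes also have high respiratory chain genes, from −0.25 to 0.31 in LSK and from −0.15 to 0.19 at E9.5 on the y axis.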

How the data were processed

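The deposited files hold raw counts of read pairs per gene, 1 file for each of 40 libraries. Per the labels and the study's methods, the authors prepared unstranded TruSeq RNA libraries, aligned reads to mm39 with Rsubread and counted them with featureCounts on RefSeq genes; versions are not given in the sources used here. Reads of overlapping or antisense genes cannot be separated. Of 26411 genes, 52 matched no entry in the gene type table.

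Here, protein-coding genes off the Y chromosome were filtered (filterByExpr), TMM-normalised and fitted separately at E9.5 and in LSK with edgeR 4.0.16 and limma 3.58.1 in R 4.3.3 (voomLmFit, 4 surrogate variables, litter as random block, robust empirical Bayes, Benjamini-Hochberg, FDR below 0.05), as the study did. LSK WT was compared with E9.5 WT in 1 fit of 40 libraries without surrogate variables. The 24 E9.5 embryos came from 17 litters and the 16 LSK samples from 9; fits that left out a library kept the litter correlation of the full fit. CPM are counts scaled to TMM-normalised library totals. DESeq2 1.42.0 and edgeR's quasi-likelihood test were alternatives. Near-copies of transcripts were found with blastn 2.17.0 (95% identity, 75 bases or more). The E9.5 fit without the litter block was tested on simulated counts, for Kat6a null against WT only. Those counts held no litter effect and no other variation shared between genes, so the litter block and the need for surrogate variables were not tested. The LSK fit and the fit of LSK WT against E9.5 WT were not tested on simulated counts.

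The genes and lists were chosen with earlier results of these data known. Named genes were those passing in a comparison, the one with the smallest p in each complex, the 10 called genes with the largest difference between LSK and E9.5 WT, isoform families and a fixed set of core subunits. No 2 libraries held the same counts. Embryos and sorted samples are separate animals or cell preparations as labelled, but several shared a litter, such as LSK WT replicates 1 to 3. Intervals give the uncertainty of a fitted mean difference, not the range of single samples. Gene coordinates are GENCODE, GRCm39; promoters are RefSeq, GRCm38.p6.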

Additional observations from a re-analysis of the deposited data

Results flagged for a closer look

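In 70 groups of 4 libraries tested for a library far from the other 3, 3 were flagged, where chance flags about 1 in 20 groups. Ndufa4l2 stood at 35.55 CPM in E9.5 double mutant replicate 2, with the other 3 double mutants at 2.43 to 3.43. Atp5mg stood at 2.99 CPM in E9.5 double mutant replicate 4, below the other 3 at 4.78 to 4.98. Ndufa3 stood at 44.4 CPM in LSK double mutant replicate 2, above the other 3 at 38.2 to 38.6. Of 18 pairs of contrasts compared, 0 moved in opposite directions in every library.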

How the results depend on the processing

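The number of genes passing in the E9.5 mutants depended on the processing. The share of all genes passing under each setting is not given. The counts below therefore describe the processing and are not results about these genes. With 0 surrogate variables, 0 of the 84 genes passed in Kat6a null, Kat6b null, Kat6a E/E, the double mutant, and Kat6a E/E against Kat6a null, and with 2 surrogate variables 0 passed in Kat6a null, Kat6b null, and Kat6a E/E against Kat6a null. With 6, 2 passed in Kat6b null, 2 in Kat6a E/E and 8 in the double mutant. edgeR's quasi-likelihood test gave 0 in Kat6a null and DESeq2 gave 2 in Kat6b null. With the replicate number as a block, 0 passed in Kat6a null, 5 in Kat6b null, 0 in Kat6a E/E against WT, 0 for the contrast of Kat6a E/E with Kat6a null, 3 in the double mutant and 61 in LSK WT against E9.5 WT. The numbers did not pair the samples: same-numbered libraries of different genotypes correlated at −0.233 to 0.311 in 60 pairs at E9.5 and −0.427 to 0.353 in 24 pairs in LSK, with 17 and 8 pairs over 0.1. Leaving out each library in turn gave 0 to 1 in Kat6a null, 0 to 2 in Kat6b null, 0 to 2 in Kat6a E/E, 0 to 3 in the double mutant, 0 to 3 in Kat6a E/E against Kat6a null, 0 to 2 in LSK double mutants, 0 to 3 in LSK double mutants against Kat6a E/E, and 47 to 59 in LSK WT against E9.5 WT, where the other alternatives gave 50 to 71. The median in LSK double mutants turned to 0.028 against WT and 0.048 against Kat6a E/E with 0 surrogate variables, and the median in Kat6a E/E against WT ranged from −0.07 to 0.00 over the fits without a library, whereas in Kat6b null it stayed between −0.11 and −0.06 in every fit. A split by near-copies was chosen after seeing the data: in Kat6b null the 14 genes with at least 50% of their transcript copied elsewhere had a median of −0.12 and the 44 without a copy −0.06. No result changed sign at a called value. The cause of these differences was not tested.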
